A study of Mus musculus with 7 samples.

Results

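Casp1, Gsdmd, Casp8, Ripk3, Bax, Bak1, Bbc3 and Bcl2l11 code for proteins of apoptosis and of the inflammatory forms of cell death. They were taken by symbol from the 52550 genes of the count table, and all 8 were found there once. Of these, 7 passed the filter on low counts and were among the 20128 genes tested, and Ripk3 did not. Total RNA was sequenced from retina of C57BL/6J mice at 12.5 weeks of age, with both retinas of a mouse in 1 library. The 4 WT mice carry Atxn7 without the expansion, and the 3 SCA7 mice are homozygous for a knock-in allele with an expanded CAG repeat in exon 1 of Atxn7. The allele is under the control of the gene's own promoter, and the labels give no treatment for either group. Sex is not in the labels.

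In intrinsic apoptosis, BH3-only proteins such as PUMA and BIM bind the pro-survival members of the BCL2 family and free BAX and BAK to open the outer mitochondrial membrane. In the extrinsic route, death receptors activate caspase-8, which also cleaves RIPK1 and RIPK3 and so holds back necroptosis. In pyroptosis, inflammasomes activate caspase-1, which matures interleukins and cleaves gasdermin D into a pore of the plasma membrane. Mature photoreceptors die by apoptosis and by other routes in inherited retinal degeneration, and microglia are a known site of inflammasome genes in the retina.

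In SCA7 retina some of the 8 genes were upregulated and others stayed near the WT level. Casp1 and Gsdmd of pyroptosis, Casp8 of the death receptor route and the BH3-only gene Bbc3 were upregulated, with FC (SCA7/WT) between 1.66 and 2.27. The BH3-only gene Bcl2l11 and the effector gene Bak1 each had a FC of 1.01, and the effector gene Bax was higher by a FC of 1.25, below the threshold of 1.3. A gene was called upregulated at an adjusted p under 0.05 with FC above 1.3 and downregulated with FC under 0.7, by the quasi-likelihood test of edgeR with p values adjusted by Benjamini-Hochberg over the 20128 genes. Of the 7 genes tested, 4 were upregulated and none was downregulated, while 7.47% of all genes tested were upregulated and 7.91% downregulated. All 7 had at least 10 counts in every library, so none entered the test through the SCA7 libraries alone. In 5 of the 7 every SCA7 library lay above every WT library, which held for 19.3% of all genes tested. The median log2 fold change was 0.73 over the 7 genes and -0.02 over all genes tested.

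The upstream sequences of Casp1, Casp8, Bbc3 and Bcl2l11 are printed because they show CG-poor and CG-rich starts among upregulated genes (the first 3) and the start of the gene paired with Bbc3 by role, which was not upregulated. Each is the 250 bases before a RefSeq transcript start on GRCm38.p6, 5′ to 3′, with CG dinucleotides in capitals. RefSeq promoter windows of 300 bases, which add the first 50 bases of the transcript, were matched for 7 of the 8 genes, all but Gsdmd (10 windows). Casp1 is shown from chr9:5298267-5298516, Casp8 from chr1:58802252-58802501, Bbc3 from chr7:16309333-16309582 (the first of 3 windows) and Bcl2l11 from chr2:128125788-128126037 (the first of 2), all on the plus strand. No exon of the annotation lies in these stretches. Those of Casp8 and Bbc3 lie inside the annotated gene, past its outermost start, so they belong to internal starts.
Casp1: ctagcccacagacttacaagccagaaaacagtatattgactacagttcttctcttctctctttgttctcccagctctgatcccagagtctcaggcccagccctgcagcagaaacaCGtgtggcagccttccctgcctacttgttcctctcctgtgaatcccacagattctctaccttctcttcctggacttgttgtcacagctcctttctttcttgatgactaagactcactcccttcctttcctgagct
Casp8: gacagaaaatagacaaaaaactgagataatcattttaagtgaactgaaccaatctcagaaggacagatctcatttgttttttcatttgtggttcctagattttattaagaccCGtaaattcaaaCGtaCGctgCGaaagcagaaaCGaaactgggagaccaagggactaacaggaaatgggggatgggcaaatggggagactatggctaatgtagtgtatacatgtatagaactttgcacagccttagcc
Bbc3: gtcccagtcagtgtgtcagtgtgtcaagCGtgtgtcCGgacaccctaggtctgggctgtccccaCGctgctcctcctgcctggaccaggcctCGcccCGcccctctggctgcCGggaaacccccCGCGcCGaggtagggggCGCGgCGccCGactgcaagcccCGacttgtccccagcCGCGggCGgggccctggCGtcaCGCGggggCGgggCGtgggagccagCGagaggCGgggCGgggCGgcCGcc
Bcl2l11: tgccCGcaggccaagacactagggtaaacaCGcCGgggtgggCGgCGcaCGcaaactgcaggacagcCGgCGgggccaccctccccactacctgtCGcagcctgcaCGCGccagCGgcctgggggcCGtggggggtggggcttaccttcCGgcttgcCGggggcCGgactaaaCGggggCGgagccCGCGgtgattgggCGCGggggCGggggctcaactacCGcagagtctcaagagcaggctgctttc

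The Casp1 stretch holds a single CG dinucleotide, inside the letters CACGTG and that of Casp8 holds 5. Those of Bbc3 and Bcl2l11 hold 27 and 24. Over the windows of 300 bases, CG dinucleotides numbered 3 for Casp1, 5 for Casp8, 10 for Ripk3, 19 for Bax and 11 for Bak1, against a median of 7 over 32851 windows of all genes. The Bbc3 windows held between 30 and 39 and the Bcl2l11 windows 27 and 38. For Bak1, all 250 bases before the start lie in annotated exons. The GC content was 48.0% for Casp1 and 42.0% for Casp8, both below the median of 52.7% over all windows, and between 71.0% and 78.0% for the windows of Bbc3 and Bcl2l11. The BH3-only pair thus shared a CG-rich start while Bbc3 was upregulated and Bcl2l11 was not.

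Short motifs were searched on both strands of the 300-base windows, and no motif contains the letters of another. The STAT-type motif TTCNNNGAA and the AP-1 motif TGACTCA were in none of the 10 windows, and in 8.30% and 5.20% of all windows. A motif of the interferon-response type was likewise in none of the 10, and in 3.44% of all windows. The E-box CACGTG was in 4 of the 10, those of Casp1, Ripk3 and Bax and 1 of Bbc3, and in 7.15% of all windows. The GC box GGGCGG was in 7 of the 10, of Ripk3, Bax, Bbc3 and Bcl2l11, and in 35.7% of all windows. The CRX-type motif TAATCC was in the Bax window alone, and in 7.06% of all windows. These are matches of letters in windows that overlap for Bbc3.

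Total counts per library lay between 56497675 and 96635832, so that 1 count equals between 0.00972 and 0.0188 CPM. Levels are CPM, counts relative to the library total scaled by TMM factors, given as mean with SD over mice, and the biological coefficient of variation over all genes was 0.106. Atxn7 itself was at a mean of 39.2 CPM (SD 4.26) in the 4 WT mice against 37.6 CPM (SD 2.99) in the 3 SCA7 mice, which says nothing about its repeat length. The summed level of 10 rod markers was between 64120 and 66142 CPM in WT and between 17294 and 22311 CPM in SCA7, so both groups hold retina. Whether there were fewer cells of a type or less RNA in each cell cannot be told apart in such bulk libraries. The paper cites earlier work on heterozygous mice of this line, with shortened photoreceptor outer segments and no overt cell loss. Cells were not counted here.

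**Figure D1:**
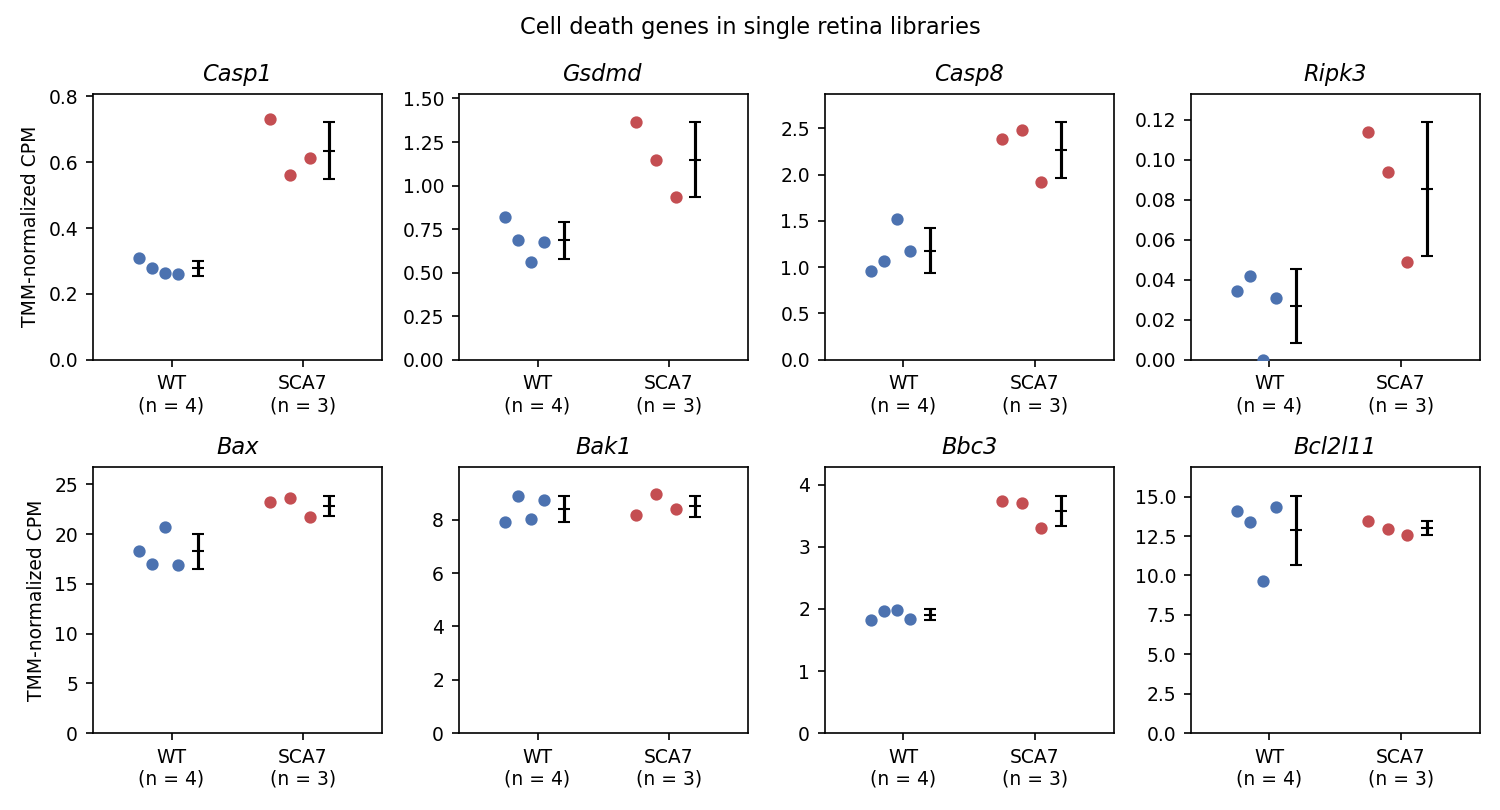
TMM-normalized CPM of each gene (y axes, linear and from 0) in the 4 WT mice (blue) and 3 SCA7 mice (red), with bars for mean ± SD at the side of each group. The red points lie above all blue points in every panel but those of Bak1 and Bcl2l11.

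Casp1 (ENSMUSG00000025888; chr9:5298517-5307265, plus strand), which codes for the inflammasome caspase, had 18, 20, 14 and 17 counts in the WT libraries and 45, 48 and 63 counts in the SCA7 libraries. These equal 0.307, 0.280, 0.263 and 0.260 CPM in WT and 0.731, 0.562 and 0.612 CPM in SCA7. The lowest SCA7 mouse was therefore well above the highest WT mouse, although the gene was near the lower end of what was detected. Casp1 rose 2.27-fold (95% interval 1.65 to 3.12), a log2 fold change of 1.18 with a standard error of 0.21 and an adjusted p of 0.0014 in edgeR with Benjamini-Hochberg adjustment. It was the largest change among the genes tested here, and the call held in 16 of 16 alternative analyses that kept a FC threshold.

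Gsdmd (ENSMUSG00000022575; chr15:75862327-75867408, plus strand), which codes for gasdermin D, was at 0.820, 0.685, 0.563 and 0.673 CPM in WT and at 1.37, 1.15 and 0.933 CPM in SCA7. The groups did not overlap, but SCA7 replicate 3 exceeded WT replicate 1 by little. Gsdmd rose 1.66-fold (95% interval 1.24 to 2.21), a log2 fold change of 0.73 with a standard error of 0.19 (edgeR with Benjamini-Hochberg adjustment, adjusted p = 0.0136). Without SCA7 replicate 1 the log2 fold change was 0.60 and the call was lost (adjusted p = 0.0763 in the same edgeR test).

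Casp8 (ENSMUSG00000026029; chr1:58795374-58847503, plus strand), the initiator caspase of death receptors, was at 0.957, 1.06, 1.52 and 1.18 CPM in WT. In SCA7 it was at 2.39, 2.48 and 1.91 CPM, with all 3 mice above WT replicate 3, the highest of the WT mice. Casp8 rose 1.92-fold (95% interval 1.48 to 2.49), a log2 fold change of 0.94 with a standard error of 0.17 (edgeR with Benjamini-Hochberg adjustment, adjusted p = 0.0017), and the call held in the same 16 alternatives.

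Ripk3 (ENSMUSG00000022221; chr14:55784995-55788865, minus strand), the kinase that phosphorylates MLKL in necroptosis, was close to the limit of these libraries. It had 2, 3, 0 and 2 counts in WT and 7, 8 and 5 counts in SCA7, 7 and 20 counts in sum. Scaled for depth, this was a mean of 0.0267 CPM (SD 0.0184) in the 4 WT mice against 0.0854 CPM (SD 0.0334) in the 3 SCA7 mice, with each SCA7 mouse above each WT mouse. In an exact permutation test (two-sided, 35 arrangements of the 7 libraries), on log2 of CPM with 0.01 added, p was 0.0571, and the smallest p this design allows is 0.0286. With all genes that had a count in the fit, the log2 fold change was 1.52 with a standard error of 0.71 and an adjusted p of 0.152 by edgeR with Benjamini-Hochberg adjustment. A difference in Ripk3 was therefore not established at this depth.

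Bax (ENSMUSG00000003873; chr7:45461697-45466898, minus strand), an effector of the mitochondrial pore, had the most counts of the 8 genes. It was at 18.3, 17.0, 20.8 and 16.9 CPM in WT and at 23.3, 23.6 and 21.7 CPM in SCA7. The SCA7 mice lay above all WT mice, SCA7 replicate 3 only just above WT replicate 3. The log2 fold change was 0.32 with a standard error of 0.08 (edgeR with Benjamini-Hochberg adjustment, adjusted p = 0.0099), and the FC of 1.25 (95% interval 1.11 to 1.41) did not reach 1.3. At an adjusted p under 0.05 alone, 28.3% of all genes tested passed in either direction and 14.2% were higher. Without WT replicate 3 the log2 fold change was 0.39 and Bax was called. It was also called with library totals in place of TMM (0.52), an analysis chosen after seeing the data in which the median of all genes was itself 0.17. That scaling gave 3681 upregulated and 978 downregulated genes in all, against 1504 and 1592 with TMM. Of its exon bases, 12.2% are shared with Gm45808 on the same strand.

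Bak1 (ENSMUSG00000057789; chr17:27019810-27029009, minus strand), the other effector, was at 7.93, 8.89, 8.03 and 8.73 CPM in WT and at 8.17, 8.95 and 8.39 CPM in SCA7. The groups overlapped over nearly their whole range. The FC was 1.01 with a 95% interval of 0.894 to 1.15 (log2 fold change 0.02, standard error 0.08, adjusted p = 0.889 in edgeR with Benjamini-Hochberg adjustment). Of its exon bases, 18.2% are shared with Ggnbp1 on the opposite strand, and whether reads were counted by strand is not stated.

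Bbc3 (ENSMUSG00000002083; chr7:16308393-16318205, plus strand) codes for PUMA, a BH3-only protein and classical p53 target. It was at 1.83, 1.97, 1.99 and 1.84 CPM in WT, with a coefficient of variation of 4.50% that was the smallest of the 8 genes, and at 3.74, 3.70 and 3.30 CPM in SCA7. Every SCA7 mouse exceeded every WT mouse by a wide margin. Bbc3 rose 1.87-fold (95% interval 1.58 to 2.23), a log2 fold change of 0.91 with a standard error of 0.11 and an adjusted p of 1.1e-04 in edgeR with Benjamini-Hochberg adjustment. The call held in the same 16 alternatives, and Bbc3 had the smallest adjusted p of the 8 genes.

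Bcl2l11 (ENSMUSG00000027381; chr2:128126038-128162547, plus strand) codes for BIM, a BH3-only protein that binds all pro-survival members of the family. It was at 14.1, 13.4, 9.62 and 14.3 CPM in WT and at 13.5, 12.9 and 12.6 CPM in SCA7. WT replicate 3 was the lowest of all 7 mice, and the SCA7 values lay within the range of WT. The FC was 1.01 with a 95% interval of 0.841 to 1.21 (log2 fold change 0.01, standard error 0.12, adjusted p = 0.955 in edgeR with Benjamini-Hochberg adjustment). Without WT replicate 3 the log2 fold change was -0.10.

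The exact permutation test gave its smallest p, 0.0286, for Casp1, Gsdmd, Casp8 and Bbc3. For Bax the exact p was 0.0571, for Bak1 0.771 and for Bcl2l11 0.971.

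**Figure D2:**
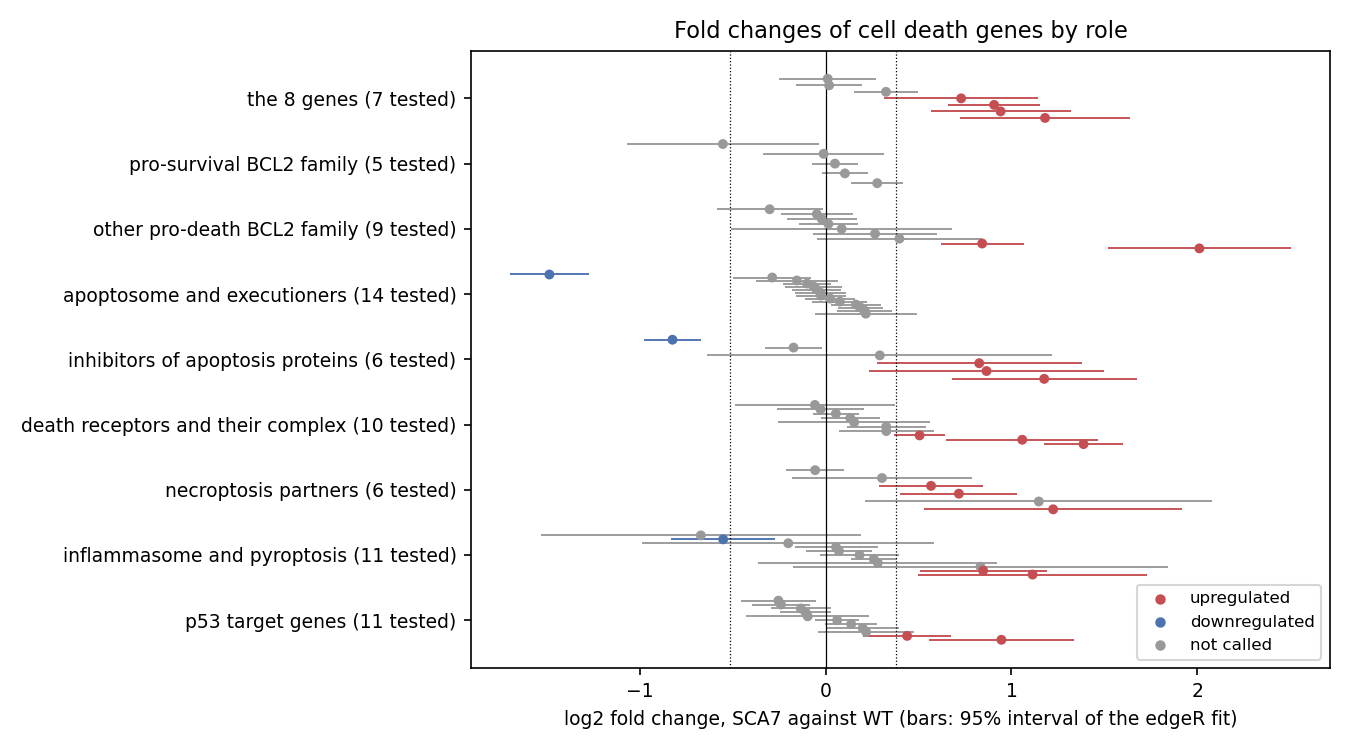
Log2 fold change of SCA7 against WT (x axis) with its 95% interval for each gene tested, the 8 genes in the top row and 8 lists of related genes below, with dotted lines at FC 0.7 and 1.3. Red points were upregulated (4 of the 7 in the top row), blue points downregulated and grey points not called.

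Partners within a route were then compared by the log2 ratio of their CPM in each library, in 4 pairs with an exact permutation test (two-sided, 35 arrangements of the 7 libraries) and Benjamini-Hochberg adjustment over the pairs. The ratio of Bbc3 to Bcl2l11 was higher in SCA7 by 0.87 on the log2 scale (exact p = 0.0571, adjusted 0.0762). In WT it was -2.94, -2.76, -2.27 and -2.96 and in SCA7 -1.85, -1.80 and -1.93, without overlap. The ratio of Bax to Bak1 was higher in SCA7 by 0.31 and that of Casp1 to Gsdmd by 0.43, also without overlap and with the same exact p of 0.0571 and adjusted 0.0762. The ratio of Casp8 to Ripk3 differed by -0.60 (exact p = 0.771, adjusted 0.771), and the WT values spread from 4.37 to 7.26 because Ripk3 was at 0 in WT replicate 3. With 0.5 CPM added the difference became 0.57, and without WT replicate 3 it became 0.070. The difference of Casp1 to Gsdmd, both low in counts, dropped to 0.072 with 0.5 CPM added (exact p = 0.486). No pair passed 0.05, so that the different calls within the pairs do not by themselves show that the partners responded differently.

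Levels were set side by side per length as RPK, counts scaled by DESeq2 size factors and divided by the median transcript length in kb. In WT, Bax was highest with 1869 ± 178 RPK (SD, n = 4), above 66.9% of the 15422 protein-coding genes tested. Bcl2l11 followed at 454 ± 78.2, Bak1 at 295 ± 17.9 and Bbc3 at 193 ± 8.81 RPK. The genes of pyroptosis, Casp8 and Ripk3 were lower, with Gsdmd at 60.1 ± 9.25, Casp8 at 43.2 ± 8.86, Casp1 at 12.8 ± 1.01 and Ripk3 at 3.82 ± 2.64 RPK, the last above only 0.888% of the protein-coding genes. The WT ranges of neighbours in this order overlapped for Gsdmd and Casp8 alone. With the union of exons as length, Bak1 stood above Bcl2l11 and Casp8 above Gsdmd. In SCA7 the RPK order was the same, with Bbc3 at 365 ± 23.9 above Bak1 at 301 ± 12.8 (SD, n = 3) as the exception. That exception depended on the length used, since with the union of exons Bbc3 was at 117 RPK and Bak1 at 246 RPK in SCA7.

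**Figure D3:**
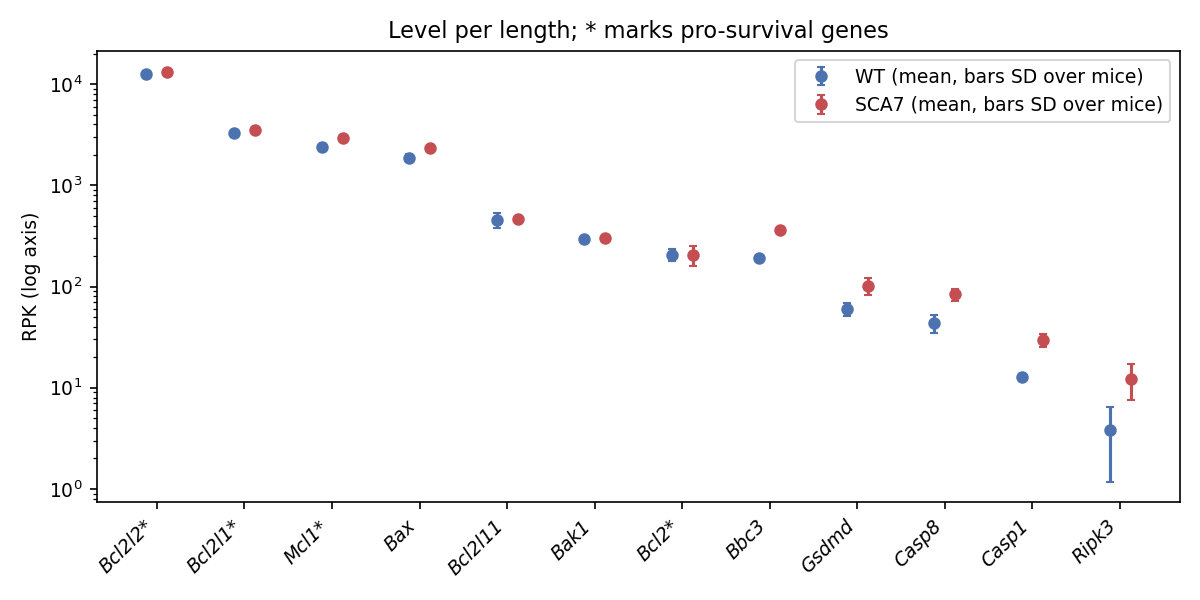
Level per length (RPK, log axis) of the 8 genes and of 4 pro-survival genes marked with an asterisk, as mean with SD bars over 4 WT mice (blue) and 3 SCA7 mice (red). Gsdmd, Casp8, Casp1 and Ripk3 are at the right, at or below 102 RPK in both groups, while Bax and the pro-survival genes other than Bcl2 are at 1869 RPK or more.

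The effectors stand against pro-survival proteins that bind them. Bcl2, Bcl2l1 (BCL-XL), Bcl2l2 (BCL-W) and Mcl1 summed to 8.62 times the RPK of Bax and Bak1 in WT and to 7.50 times in SCA7. The log2 ratio of effectors to pro-survival genes was -3.08, -3.19, -2.91 and -3.24 in the WT libraries and -2.89, -2.85 and -2.98 in the SCA7 libraries. The groups overlapped, with WT replicate 3 between SCA7 replicates 1 and 3, and the means differed by 0.20. With the union of exons as length the pro-survival genes summed to 4.30 times the effectors in WT and 3.95 times in SCA7, and the log2 ratios differed by 0.12. Of 8 pro-survival genes, 5 were tested and none was called, with a median log2 fold change of 0.05. Bcl2l2 had the highest WT level among them, at 12666 RPK, and shares 13.3% of its exon bases with Gm20521 on the same strand. Mcl1 was higher by 0.28 on the log2 scale (adjusted p = 0.0072 in edgeR with Benjamini-Hochberg adjustment), under the FC threshold. Bcl2a1a, Bcl2a1b and Bcl2a1d, near-identical copies among which reads cannot be placed with certainty, did not pass the filter.

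Among 9 other pro-death genes of the family, all tested, 2 were upregulated and none downregulated, and the median log2 fold change over those tested was 0.09. Bik, a BH3-only gene, was at 0.410, 0.238, 0.394 and 0.382 CPM in WT and at 1.69, 1.51 and 1.11 CPM in SCA7. It rose by 2.01 on the log2 scale (adjusted p = 4.6e-05 in edgeR with Benjamini-Hochberg adjustment), more than any of the 8 genes. Bmf, which codes for a BH3-only protein held at the cytoskeleton, rose from a WT mean of 22.8 CPM (SD 3.24, 4 mice) to 40.9 CPM (SD 2.76, 3 mice), or 0.84 on the log2 scale (adjusted p = 1.0e-04 in the same edgeR test). Bnip3, of mitophagy, had the highest WT level of this list and was not called.

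Downstream of the pore, 14 genes of the apoptosome and of the steps that follow it were tested. None was upregulated, and the median log2 fold change was -0.03. Parp1, which codes for a DNA repair enzyme, had the highest WT level of the list and was not called.

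Of 7 inhibitors of apoptosis proteins, 6 were tested, 3 were upregulated and 1 was downregulated, and the median log2 fold change over those tested was 0.56. Xiap, which blocks caspases directly, had the highest WT level of the list and fell from a WT mean of 558 CPM (SD 4.34, 4 mice) to 315 CPM (SD 25.0, 3 mice). The fold change was -0.82 on the log2 scale (adjusted p = 4.6e-06 in edgeR with Benjamini-Hochberg adjustment). Naip2 and Naip5, which code for sensors of the NLRC4 inflammasome in spite of their place in this family, had log2 fold changes of 1.18 and 0.87 and share near-identical copies. Birc3, a ubiquitin ligase of TNF signalling, had 0.83. The call of Naip5 was lost in 5 of the 7 fits without 1 mouse and that of Birc3 in 2 of them, and Naip6 did not pass the filter.

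Around Casp8, 10 of 12 genes of death receptors and their complex were tested, of which 3 were upregulated and none was downregulated (median log2 fold change 0.24). Tnfrsf1a, the TNF receptor, rose from a WT mean of 4.33 CPM (SD 0.186, 4 mice) to 11.3 CPM (SD 1.40, 3 mice), or 1.39 on the log2 scale (adjusted p = 1.3e-06 in edgeR with Benjamini-Hochberg adjustment). Fas, the receptor of FAS ligand, rose by 1.06 on the log2 scale (adjusted p = 0.0013 in the same test). Cflar, which codes for FLIP, an inhibitor of caspase-8, rose by 0.51 (adjusted p = 1.0e-04 in the same test) and had the highest WT level of the list. The ligand genes Fasl and Tnf did not pass the filter.

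Around Ripk3, all 6 necroptosis partners were tested, with 3 upregulated and none downregulated, at a median log2 fold change of 0.64. Zbp1, a sensor of nucleic acids, had a log2 fold change of 1.22 (adjusted p = 0.0132), the toll-like receptor gene Tlr4 0.72 (adjusted p = 0.0031) and Tlr3 0.57 (adjusted p = 0.0059), all in edgeR with Benjamini-Hochberg adjustment. The call of Zbp1 was lost without SCA7 replicate 2. Mlkl, the executioner of necroptosis (named after its values were seen), had a log2 fold change of 1.15 (adjusted p = 0.0649 in the same test), at a mean of 0.124 CPM (SD 0.0440) in the 4 WT mice against 0.272 CPM (SD 0.144) in the 3 SCA7 mice. Pgam5, a mitochondrial phosphatase, had the highest WT level and was not called.

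Around Casp1 and Gsdmd, 11 of 17 inflammasome and pyroptosis genes were tested, with 2 upregulated and 1 downregulated, at a median log2 fold change of 0.18. Pycard, which codes for the adaptor ASC, was at a mean of 1.08 CPM (SD 0.179) in the 4 WT mice against 1.95 CPM (SD 0.138) in the 3 SCA7 mice and rose by 0.85 on the log2 scale (adjusted p = 0.0018 in edgeR with Benjamini-Hochberg adjustment). Casp12, a neighbour of Casp1 in sequence, had 1.11 (adjusted p = 0.0117), and the DNA sensor gene Aim2 had -0.55 (adjusted p = 0.0071 in the same test). The call of Casp12 was lost without SCA7 replicate 2 and that of Aim2 without SCA7 replicate 1. The sensor gene Nlrp3 (named after its values were seen) was at a mean of 0.180 CPM (SD 0.0399) in the 4 WT mice against 0.158 CPM (SD 0.0540) in the 3 SCA7 mice (log2 fold change -0.20, adjusted p = 0.716 in the same edgeR test). Nlrp1a, Nlrp1b, Nlrc4, Mefv, Il1b and Il1rn did not pass the filter, and Nek7, a partner of NLRP3, had the highest WT level.

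Bbc3 belongs to the targets of p53, of which a list of 12 genes was drawn up that includes Trp53 itself. Of the 11 tested, 2 were upregulated and none downregulated, and the median log2 fold change over those tested was 0.06. Cdkn1a, which codes for the cell cycle inhibitor p21, rose by 0.95 on the log2 scale (adjusted p = 0.0020) and Trp53 by 0.44 (adjusted p = 0.0102), in edgeR with Benjamini-Hochberg adjustment. The call of Trp53 was lost without WT replicate 1. Ccng1 had the highest WT level, and Eda2r did not pass the filter. Over the 8 lists, 15 of the 72 genes tested were upregulated and 3 downregulated, beside the 7.47% and 7.91% of all genes tested.

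**Figure D4:**
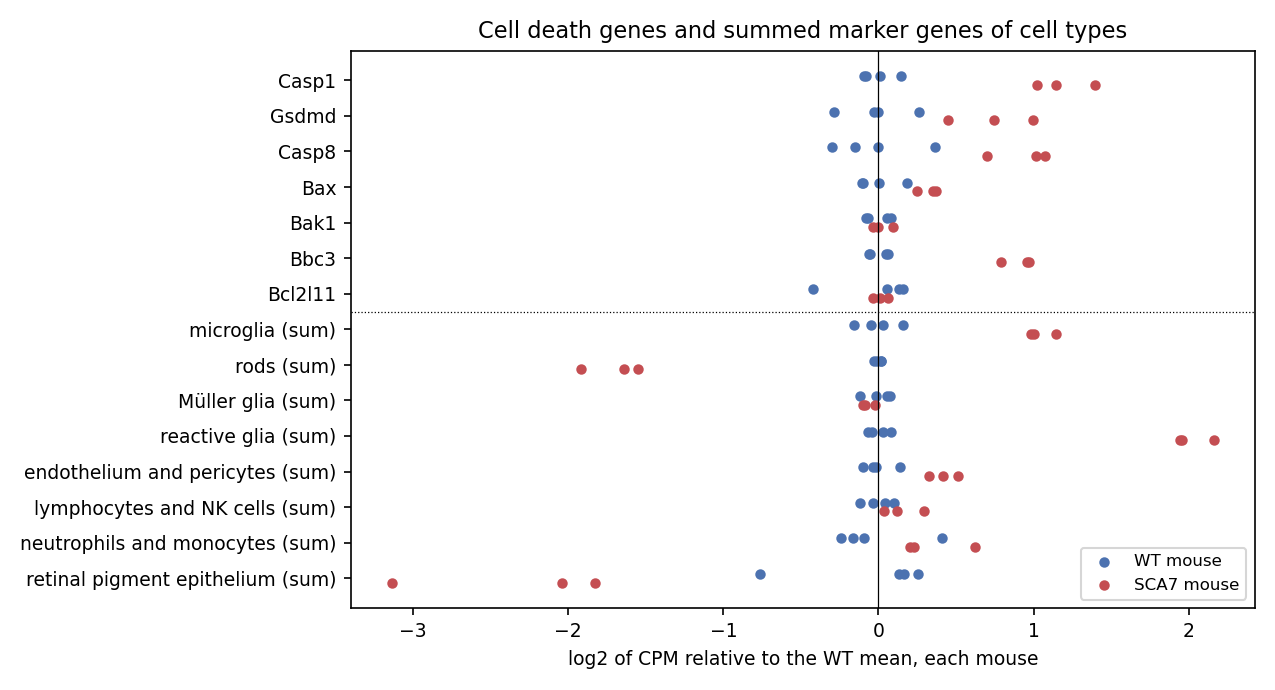
Log2 of CPM relative to the WT mean (x axis) for the 7 genes tested and, below the dotted line, for the summed CPM of marker genes of cell types, with a point for each mouse (WT blue, SCA7 red). The sums for microglia and reactive glia are to the right in SCA7 together with Casp1, Gsdmd, Casp8 and Bbc3, while those for rods and retinal pigment epithelium are to the left.

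Marker genes of several cell types moved with the genotype. The 13 microglial markers, all upregulated, summed to between 99.7 and 124 CPM in WT and between 220 and 247 CPM in SCA7. The ratio of their sums was 2.06, and the FC was 2.27 for Casp1, 1.92 for Casp8, 1.87 for Bbc3 and 1.66 for Gsdmd. The 8 markers of reactive glia, 7 of them upregulated, summed to between 87.2 and 96.6 CPM in WT and between 352 and 409 CPM in SCA7. Of 10 markers of rods all were downregulated, and the ratio of their sums was 0.309. The 10 markers of Müller glia had a ratio of sums of 0.954, a value weighted to the most abundant genes. Taken singly, 7 of the 10 were higher, 2 of them upregulated, at a median log2 fold change of 0.31. The 8 markers of endothelium and pericytes, 2 of them upregulated, had a ratio of sums of 1.34. Markers of lymphocytes and NK cells summed to at most 1.54 CPM in any library, with 1 of the 3 tested upregulated (Cd8a). Those of neutrophils and monocytes summed to at most 0.894 CPM, with none of the 4 tested called and Camp at 0 in all libraries. Of 8 markers of retinal pigment epithelium, a tissue behind the retina, 4 were downregulated, and their sum was between 111 and 225 CPM in WT, lowest in WT replicate 3, and between 21.4 and 53.1 CPM in SCA7. The part of these cell types in the levels of the 8 genes was not tested.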

How the data were processed

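Total RNA-seq of 7 retina libraries was analysed, 4 WT and 3 SCA7, grouped by the genotype in the labels. The authors depleted ribosomal RNA, prepared stranded libraries, mapped single reads to mm10 with TopHat2 (2.0.14) and Bowtie2 (2.1.0) and counted them with HTSeq (0.6.1); the strand option is not given in the sources used here. The deposited table holds raw counts per Ensembl gene, whole numbers without normalization. Symbols and lengths were taken from a GRCm38 annotation, in which 52403 of the 52550 genes were found. Overlap of exons was checked for the 8 genes and for the lists.

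Genes were kept by filterByExpr of edgeR 4.0.16, scaled by TMM and tested with glmQLFit (robust) and the quasi-likelihood test in R 4.3.3, without covariates, with Benjamini-Hochberg adjustment over 20128 genes. Single values and ratios of partners were compared by exact two-sided permutation tests over 35 splits, on log2 CPM with 0.01 CPM added. The 8 genes, the lists of related genes and markers were chosen with earlier results of these data known. Named were the 8 genes, in each list up to 3 called genes a direction, the untested genes and the gene with the highest WT level, the pro-survival genes of the ratio, and the gene whose profile was closest to each of the 8. The values of some genes of the lists are not reported here.

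Alternatives were DESeq2 size factors, the Wald test of DESeq2 1.42.0, limma-voom (limma 3.58.1), no filter beyond 1 count, 10 or more counts in all libraries, a block for the replicate number, the Xist level as covariate, a stricter adjusted p (0.01), calls without a FC threshold, 0.5 CPM added for ratios, other lengths and scaling for levels, and each library left out. Library totals without TMM, and the recount of the lists under each alternative, were added after seeing the data. The steps were tested on simulated counts, with a log2 change of 1 put into 200 genes. The edgeR test recovered 154 of them, and 138 of the 142 at 1 CPM or more. Most changes missed were thus under 1 CPM, where a gene not called may still differ. Depth is given with the results, and errors are SD over mice or standard errors of the fit.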

Additional observations from a re-analysis of the deposited data

How the results depend on the processing

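Casp1, Casp8 and Bbc3 were called upregulated in 16 of 16 alternatives that kept a FC threshold, Gsdmd in 14 and Bax in 2, and all 5 were called without that threshold. Between 3 and 5 of the 8 genes were upregulated and none downregulated when each mouse was left out, with a median log2 fold change from 0.60 without SCA7 replicate 1 to 0.87 without SCA7 replicate 3. An adjusted p under 0.01 also lost Gsdmd. Library totals without TMM, chosen after seeing the data, gave 3681 upregulated and 978 downregulated genes in all, a median of 0.92 over the 8 genes where tested and 26 upregulated related genes in place of 15, and ended the call of Aim2. Without a FC threshold, 2853 genes were upregulated and 2852 downregulated, 5 of them related genes that were lower. The larger counts there follow from the dropped threshold. The cause of the other shifts was not tested.

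The sign of the small differences was not stable. Over the fits that left out a mouse, the log2 fold change was between -0.019 and 0.048 for Bak1 and between -0.10 and 0.065 for Bcl2l11. The difference of the Casp8 to Ripk3 ratio was 0.57 with 0.5 CPM added and between -0.89 and 0.070 with a mouse left out. It was positive without WT replicate 3, where Ripk3 had no count. With 0.5 CPM added that of Casp1 to Gsdmd dropped to 0.072, against 0.30 for Bax to Bak1 and 0.73 for Bbc3 to Bcl2l11. With a mouse left out these 3 pairs kept their direction, from 0.25 to 0.39 for Bax to Bak1, 0.80 to 1.03 for Bbc3 to Bcl2l11 and 0.31 to 0.52 for Casp1 to Gsdmd, in tests that cannot reach 0.05 at that size. Among related genes, between 12 and 15 were upregulated and between 2 and 4 downregulated with a mouse left out.

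WT and SCA7 mice share replicate numbers. Deviations from the group means correlated across genes at 0.03, 0.38 and 0.14 for same-numbered libraries, and between -0.38 and 0.21 for differently numbered ones. These values do not decide whether the numbers mark pairs, and the main fit did not take them as pairs. With the replicate number as a block, 1629 genes were upregulated and 1706 downregulated, the same 4 of the 8 genes were upregulated with a median of 0.74 over those tested, and 16 related genes were upregulated and 3 downregulated. The log2 ratio of effectors to pro-survival genes differed by 0.20 with the median transcript length, 0.12 with the union of exons and 0.11 as CPM without length. Depth limits Ripk3, with at most 8 counts in a library, and the other genes under 1 CPM more than Bax, Bak1 and Bcl2l11.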

Other observations

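For each of the 8 genes, the protein-coding gene with the closest profile was found among those with a mean of at least 1 CPM, by the root mean square difference of log2 CPM centred on the WT mean over the 7 libraries. Profiles mostly follow the genotype difference, so that the measure says little beyond a like fold change. Closest to Casp1 was Cd44, an adhesion receptor, with a difference of 0.116 (mean 9.26 CPM over WT mice, 20.9 CPM over SCA7 mice). Gsdmd was closest to Zfp36, which codes for an mRNA decay protein, at 0.0978, and Casp8 to Rab31, a vesicle GTPase gene, at 0.145. Bbc3 was closest to Kcng4, a potassium channel subunit gene, at 0.0509. Bax was closest to Lsm10, at 0.0302, Bak1 to Ccdc71, at 0.0216, and Bcl2l11 to 2310061I04Rik, at 0.0357. Ripk3 had no close match: Nlrc5 was nearest at 0.584, with 0 counts of Ripk3 in WT replicate 3.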
